A study of Ovis aries with 2 samples.

Results

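The plasminogen activators and a set of serpins were examined in granulosa cells of Hu sheep ewes. The genes were chosen by name: SERPINE2, SERPINB2, SERPINF1, SERPINH1, PLAT, PLAU and PLAUR. Of these 7 names, 6 head a row of the deposited table, on 7 of its 22881 transcript entries, beside 15490 named genes in all. No row carries the name PLAUR, the receptor for urokinase, which is not analysed here.

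Granulosa cells line the ovarian follicle and surround the oocyte. The supplemented group (8 multiparous ewes aged 3 to 4 years) received 1560 g of feed per ewe per day in the luteal phase, or 1.5 times maintenance. The restricted group (8 such ewes) received 520 g, or 0.5 times maintenance. The granulosa layer was scraped from visible follicles above 2.5 mm in diameter, and RNA of each group gave 1 library. Reads recovered from the deposited counts summed to 9426679 for the supplemented and 11299773 for the restricted group over all transcript entries. A share of all reads below is a share of these sums, which leave out reads that fell on no entry. How many ewes contributed to each library is not stated in the labels. With 1 library per diet the diets could not be tested, so every difference below is between 2 libraries and has no replicate check.

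Plasminogen activators are serine proteases that convert plasminogen, a plasma protein also present in follicular fluid, into plasmin, which digests fibrin and extracellular matrix. PLAT encodes the tissue-type and PLAU the urokinase-type activator. Serpins are a protein family named for the members that trap serine proteases, and some members have lost that activity. In the ovary the system is known for its part in loosening the follicle wall before ovulation.

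The inhibitor SERPINE2 and the collagen chaperone SERPINH1 were lower in the supplemented library, while both activators and the inhibitor SERPINB2 were higher. SERPINE2 stood at 3412 FPKM (fragments scaled for transcript length and library size) against 7419 FPKM, SERPINH1 at 196 against 420.2 FPKM and SERPINB2 at 9.66 against 0.508 FPKM in the supplemented and the restricted library. PLAT stood at 2.15 FPKM in the supplemented library against 0.986 FPKM in the restricted library, and PLAU at 1.29 against 0.614 FPKM. SERPINF1, at 2.76 against 3.85 FPKM, differed least.

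**Figure D1:**
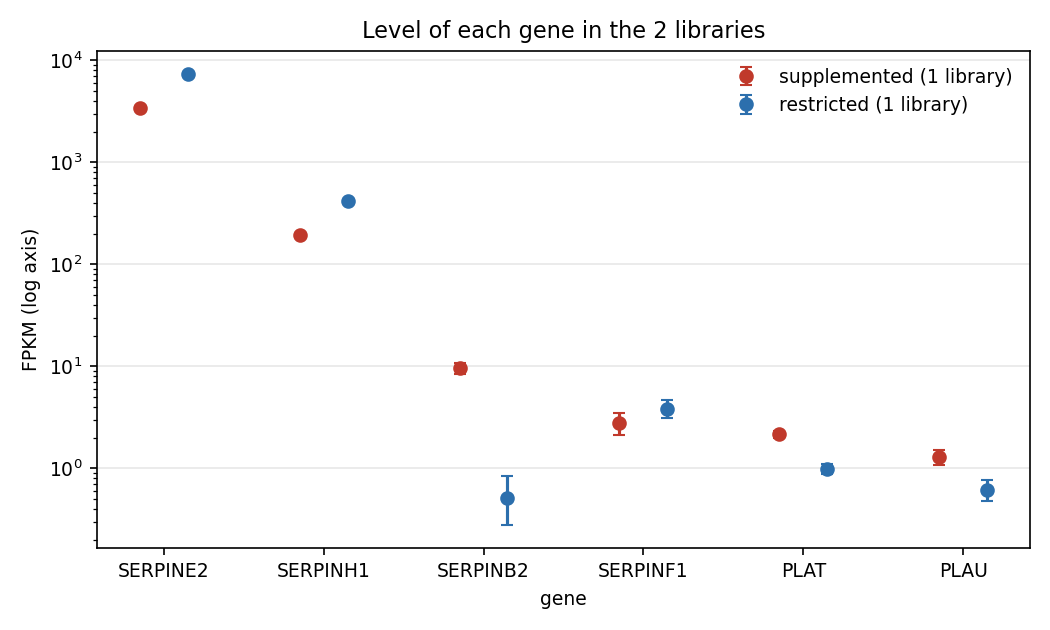
FPKM of the 6 genes (log axis) in the supplemented library (left point of each pair) and the restricted library (right point), 1 library each, with exact 95% Poisson intervals for counting error. SERPINE2, at 3412 against 7419 FPKM, lies far above the rest, and SERPINB2 is the gene whose points lie farthest apart, at 9.66 against 0.508 FPKM.

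A gene was called higher or lower by size when log2((supplemented FPKM + 1) / (restricted FPKM + 1)) was at least 1 or at most -1, among genes whose FPKM averaged at least 1. The added 1 understates the difference of low genes, so a ratio of scaled reads is given as well, with an exact Clopper-Pearson 95% interval. These intervals cover counting error alone, since reads of an amplified library are not independent molecules. Of the 6 genes, 5 passed the filter and PLAU, with a mean FPKM of 0.952, did not. By size 1 of the 5 (SERPINB2) was higher, against 5.87% of the 11927 measured genes, and 2 (SERPINE2 and SERPINH1) were lower, against 2.85%. The median log2 ratio was -0.37 over the 5 genes and -0.08 over all measured genes. By the counting interval, 2 of the 5 lay wholly above 1 (SERPINB2 and PLAT), where 20.4% of measured genes did. The other 3 lay wholly below 1, where 35.7% of measured genes did. With so few genes these shares describe the set and no more. The same shares of all measured genes are to be read beside the counts of every list below. The authors' deposited table calls both entries of SERPINB2 up at q below 0.05, as it does 0.612% of all entries, and calls none of the other 5 genes. Down calls make up 0.131% of its entries.

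SERPINE2 encodes protease nexin, a secreted inhibitor of thrombin, urokinase, tissue-type activator and plasmin that is made by granulosa cells in cattle. It lies on chromosome 2 from 225124515 to 225153623 of Oar_v3.1. In the supplemented library 74929 reads fell on it, against 168672 in the restricted library. That was 0.795% of all reads in the supplemented library (95% interval 0.789 to 0.801) against 1.49% in the restricted library (1.49 to 1.50). Among 19909 genes it ranked 13 by FPKM in the supplemented library and 5 in the restricted library. The ratio of scaled reads was 2.17-fold lower (2.16 to 2.19), with a log2 ratio of -1.12. As a share of all reads it was 1.88-fold lower, which is under the 2-fold size. The authors' deposited table gives it p = 0.332 and q = 1.00, a comparison of these 2 libraries.

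Genes nearest to SERPINE2 in level over both libraries were INHA and INHBA, subunits of inhibin and activin, and RPLP1, a ribosomal protein. INHA stood at 2910 against 7412 FPKM, a Euclidean distance of 0.23 from SERPINE2 in log2(FPKM + 1) over the 2 libraries. INHBA stood at 2227 against 5880 FPKM (distance 0.70) and RPLP1 at 4882 against 4832 FPKM (distance 0.81). INHA and INHBA were also lower in the supplemented library, which a choice by level in both libraries favours. RPLP1, whose values were close in both libraries, was near in abundance alone. Of 14 measured granulosa markers, 5 were lower by size and 0 higher, with a median log2 ratio of -0.78 and a summed level of 7902 FPKM in the supplemented against 18213 FPKM in the restricted library, and none was at 0. Per read of those markers, SERPINE2 had 0.335 reads in supplemented ewes' cells and 0.304 in restricted ewes' cells, a ratio of 1.10 (95% interval 1.09 to 1.11). INHA and INHBA hold most of the reads of that sum. Centred on the median marker in place of the sum, the log2 ratio of SERPINE2 was -0.34, so the direction relative to the markers turns with the way they are summarised. The markers did not all differ alike. Intervals were below 1 for 12 of the 14, with ratios from 0.300 (0.286 to 0.314) for CYP19A1 to 0.882 (0.839 to 0.927) for FSHR. Intervals included 1 for ESR2 (0.833, 0.646 to 1.07) and AMHR2 (1.27, 0.969 to 1.67). The part of the granulosa markers in the lower SERPINE2 level was not tested. In a bulk library, fewer granulosa cells and less RNA of particular genes per cell cannot be told apart.

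PLAT lies on chromosome 26 from 35532319 to 35559684 and PLAU on chromosome 25, within an interval from 29588780 to 29725650. PLAT had 702 reads in the supplemented against 333 in the restricted library, 2.18-fold higher by scaled reads (1.91 to 2.49). PLAU had 138 against 68 reads, 2.10-fold higher (1.56 to 2.85). Both activators were thus about as much higher as each other, on few reads for PLAU. The ratio of PLAT to PLAU reads was 5.09 in the supplemented library and 4.90 in the restricted, a ratio of 1.04 with an interval of 0.743 to 1.44 that includes 1. The log2 ratio of FPKM + 1 was 0.67 for PLAT and 0.50 for PLAU, which did not reach the threshold of 1. With a pseudocount of 0.1 PLAT reached 1.05. The authors' deposited table gives PLAT p = 0.0276 and q = 0.607, and PLAU p = 0.360 and q = 1.00.

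The level of both activators depends on the length that the authors divided by. Scaled reads per unit of FPKM are proportional to that length, and they were 331 for PLAT and 109 for PLAU against 22.3 for SERPINE2. The length behind PLAT was thus 14.8 times, and that behind PLAU 4.87 times, the length behind SERPINE2. SERPINH1 also had a divisor 4.86 times that of SERPINE2, whereas SERPINF1 (1.12 times) and the SERPINB2 entries (1.44 and 0.940 times) were close to it. Coding lengths of these proteins are known to be much more alike than this, so the order of PLAT, PLAU and SERPINH1 by FPKM rests on these divisors, whose origin was not tested. Ratios of scaled reads between the libraries do not depend on the divisor, whereas the filter on mean FPKM and the log2 ratio of FPKM + 1 do.

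PLAU shares its listed interval with CAMK2G, a kinase gene with 400 reads in the supplemented library and 449 in the restricted. PLAT shares its interval with an unnamed entry of 8 against 28 reads. The values of PLAT came to 701.75 and 332.52 reads before rounding, so some of its reads were counted in fractions. How those fractions arose was not tested. Whether counting used strand was not stated in these sources, so reads of overlapping genes may not be cleanly separated.

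The balance of inhibitor to activator differed in direction between SERPINE2 and SERPINB2. It can be given without any scaling of the libraries, as reads of a pair of genes within the same library. For each read of PLAT there were 107 reads of SERPINE2 in the supplemented library and 507 in the restricted library, which is 4.75-fold lower (95% interval 4.16 to 5.42). For PLAU the ratio was 543 in the supplemented against 2480.5 in the restricted library, 4.57-fold lower (3.39 to 6.20). Over both activators together it was 4.72-fold lower (4.18 to 5.33). SERPINE2 reads outnumbered those of the activators in both libraries, by far less in the supplemented one. Set against the rarer inhibitor, the ratio went the other way. For each read of PLAU there were 1.88 reads of SERPINB2 in the supplemented library and 0.206 in the restricted library, 9.07-fold higher (4.84 to 18.1). For PLAT the ratio was 0.369 against 0.0420, 8.77-fold higher (5.03 to 16.5). These are read ratios, and protein or protease activity was not measured.

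SERPINB2 encodes plasminogen activator inhibitor type 2, an inhibitor of urokinase that is known from monocytes, macrophages and keratinocytes. The deposited table lists it in 2 places on chromosome 23. The entry from 62225469 to 62298724 had 171 reads in the supplemented against 9 in the restricted library, or 5.39 against 0.274 FPKM. The entry from 12629779 to 12641858 had 88 against 5 reads, at 4.26 against 0.234 FPKM. Both entries were higher in the supplemented library, by 19.7-fold (10.1 to 43.8) and 18.2-fold (7.52 to 57.5). Their read ratio to each other was 1.94 in the supplemented library and 1.80 in the restricted, a ratio of 1.08 with an interval of 0.276 to 3.72, so no difference between the entries was detectable at this depth. Summed, SERPINB2 was 19.2-fold higher (11.2 to 35.5), with a log2 ratio of FPKM + 1 of 2.82. For it the authors' deposited table gives q = 0.000427 for the first entry and q = 0.00667 for the second.

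The surroundings of the 2 entries differ. The one near 62 Mb lies between SERPINB7 and SERPINB10 in the deposited table, and the one near 12 Mb between SERPINB8 and SYT4. RefSeq's annotation of the newer sheep assembly ARS-UI_Ramb_v3.0 has 1 gene with this symbol, which is also next to SYT4. Whether the other entry is a second copy, a related serpin under the same name or a part of the same gene was not tested, and reads of near-identical copies could have been split between them.

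Of the serpin entries near 62 Mb, from 61973056 to 62326225, SERPINB10, a serpin of blood-forming cells, had 30 reads in the supplemented against 1 in the restricted library, a ratio of 31.1 with a very wide interval of 5.16 to 1267. The other 7 entries, of 6 genes (SERPINB3, SERPINB4, SERPINB5, SERPINB7, SERPINB11 and SERPINB13), had at most 3 reads in either library. In the supplemented library nearly all reads of this stretch thus came from SERPINB2 and its direct neighbour. SERPINB10 was named after its values were seen, and its mean FPKM is below the filter.

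Leukocyte markers moved with SERPINB2. Of 15 measured markers, 13 were higher by size and 0 lower, with a median log2 ratio of 2.05. Over the 18 markers with a row, the summed level was 605 FPKM in the supplemented library against 113 FPKM in the restricted library. CD79B, a B cell marker, had 1 read in the supplemented library and 0 in the restricted, and no other marker of the list was at 0 in either library. CD79A, another B cell marker, had 11 against 5 reads (ratio 2.28, 0.730 to 8.36). No difference was detectable for CD79A or CD79B at this depth. FCER1G, the gamma chain of immunoglobulin receptors, stood at 161 against 39.0 FPKM and CD68, a macrophage protein, at 120 against 22.5 FPKM. SERPINB2 had 0.0259 reads per leukocyte marker read in the supplemented library and 0.00780 in the restricted, a ratio of 3.32 (95% interval 1.94 to 6.17). Single markers reached ratios whose intervals overlap that of SERPINB2. Among them were the neutrophil and monocyte proteins S100A12 at 15.1-fold (10.9 to 21.3) and S100A9 at 12.7-fold (8.77 to 18.9), and ITGAM at 9.27-fold (7.13 to 12.2). The 2 measured markers not past the size threshold were CD3E (ratio 1.54, 1.01 to 2.37) and CD3G (1.24, 0.492 to 3.21). The part of leukocytes in the SERPINB2 and activator levels was not tested. Genes nearest to SERPINB2 in level over both libraries were MEFV at 8.75 against 0.555 FPKM (distance 0.14), MB at 9.77 against 0.663 FPKM (0.14) and SAMSN1 at 10.96 against 0.522 FPKM (0.17).

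SERPINH1 encodes a chaperone of the endoplasmic reticulum that binds procollagen and does not inhibit proteases. It lies on chromosome 15 from 52917114 to 52932207 and shares that interval with an unnamed entry without reads. It had 20964 reads in the supplemented against 46469 in the restricted library, 2.14-fold lower by scaled reads (2.11 to 2.18), with a log2 ratio of -1.09. As a share of all reads it was 1.85-fold lower. The authors' deposited table gives p = 0.0973 and q = 0.895. Its ratio tracked that of SERPINE2, since reads of SERPINE2 per read of SERPINH1 were 3.57 in the supplemented library and 3.63 in the restricted, a ratio of 0.985 with an interval of 0.967 to 1.003 that includes 1.

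Several fibrillar and type VI collagen chains were higher in the supplemented library, unlike SERPINH1. Of 11 measured collagen chains, 5 were higher by size and 0 lower, with a median log2 ratio of 0.89 and a summed level of 581 FPKM in the supplemented against 276 FPKM in the restricted library. COL1A1 stood at 152 against 37.4 FPKM, COL1A2 at 118 against 26.3 FPKM and COL3A1 at 83.4 against 23.2 FPKM, and the authors' deposited table calls all 3 of them up. COL6A1 and COL6A2 were 2.47-fold (2.29 to 2.66) and 2.20-fold higher (2.03 to 2.39). By the counting interval, 8 of the 11 chains were above 1 and 2 below. Those below were the basement membrane chains COL4A1, at 69.0 against 84.2 FPKM (ratio 0.820, 0.794 to 0.847), and COL4A2, at 43.4 against 53.8 FPKM (ratio 0.807, 0.775 to 0.840). COL18A1 had a ratio of 1.00 (0.867 to 1.16). Reads of SERPINH1 per read of COL1A1, COL1A2 and COL3A1 together came to 0.654 in the supplemented against 5.68 in the restricted library, which is 8.68-fold lower (8.43 to 8.93). Stromal and smooth muscle markers had a median log2 ratio of 0.26 over 9 measured genes, 2 of them higher by size and 0 lower. Their summed level was 920 FPKM in the supplemented against 566 FPKM in the restricted library and none was at 0. Counting intervals were above 1 for 5 of the 9 and below 1 for 3. The higher sum came mainly from the smooth muscle genes ACTA2 at 328 against 117 FPKM (2.80-fold, 2.67 to 2.93), MYH11 at 109 against 35.7 FPKM (3.06-fold, 2.96 to 3.17) and TAGLN at 207 against 136 FPKM (1.52-fold, 1.43 to 1.63). The stromal markers did not move alike. LUM (ratio 0.676, 0.627 to 0.729), PDGFRA (0.531, 0.463 to 0.608) and PDGFRB (0.573, 0.504 to 0.650) were lower in the supplemented library by counting interval. DCN was higher, at 172 against 144 FPKM (1.20-fold, 1.14 to 1.26). The part of the stromal and smooth muscle markers in the collagen levels was not tested.

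Enzymes of collagen maturation split. Of 16 measured genes, 2 were higher and 1 lower by size, where 5.87% and 2.85% of all measured genes were. Their median log2 ratio was -0.26, and 11 had a counting interval wholly below 1, where 35.7% of all measured genes did. P4HA1, a subunit of the prolyl hydroxylase, stood at 30.3 against 76.5 FPKM, 2.52-fold lower (2.34 to 2.72). P4HB, its partner subunit, stood at 276 against 448 FPKM and PPIB, a prolyl isomerase, at 814 against 1106 FPKM. PCOLCE, an enhancer of procollagen cleavage made by matrix-forming cells, stood at 21.1 against 7.83 FPKM, 2.70-fold higher (2.29 to 3.18). ADAMTS2, a procollagen protease whose mean FPKM lies under 5, was the other gene higher by size. Of 13 measured chaperones of the endoplasmic reticulum, 0 were past the size threshold, yet all 13 had an interval wholly below 1 and their median log2 ratio was -0.64. That median became 0.14 when values were centred on the granulosa markers. HSPA5 stood at 430 against 619 FPKM and CALR at 541 against 882 FPKM, so SERPINH1, with -1.09, lay below the median of this list.

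SERPINF1 encodes pigment epithelium-derived factor, a secreted serpin that restrains vessel growth and does not inhibit proteases. It lies on chromosome 11 from 22471286 to 22478665. It had 68 reads in the supplemented against 98 in the restricted library, 1.39-fold lower (1.01 to 1.93), with a log2 ratio of -0.37. The interval barely leaves out 1, and by share of all reads the ratio was 1.20-fold lower. When centred on the granulosa markers the log2 ratio was 0.42, so its direction depends on the scaling. The authors' deposited table gives p = 0.529 and q = 1.00.

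In order of FPKM, SERPINE2 and SERPINH1 came first in both libraries, with the reservation on length above. In the supplemented library SERPINB2, SERPINF1, PLAT and PLAU followed. The counting intervals of SERPINF1 (2.14 to 3.50 FPKM) and PLAT (1.998 to 2.32 FPKM) overlapped there, and those of the other neighbours did not. In the restricted library the order was SERPINF1, PLAT, PLAU and SERPINB2, and the intervals of PLAU (0.477 to 0.779 FPKM) and SERPINB2 (0.278 to 0.853 FPKM) overlapped. SERPINB2 therefore held the third place in the supplemented library and the last, level with PLAU within counting error, in the restricted library.

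**Figure D2:**
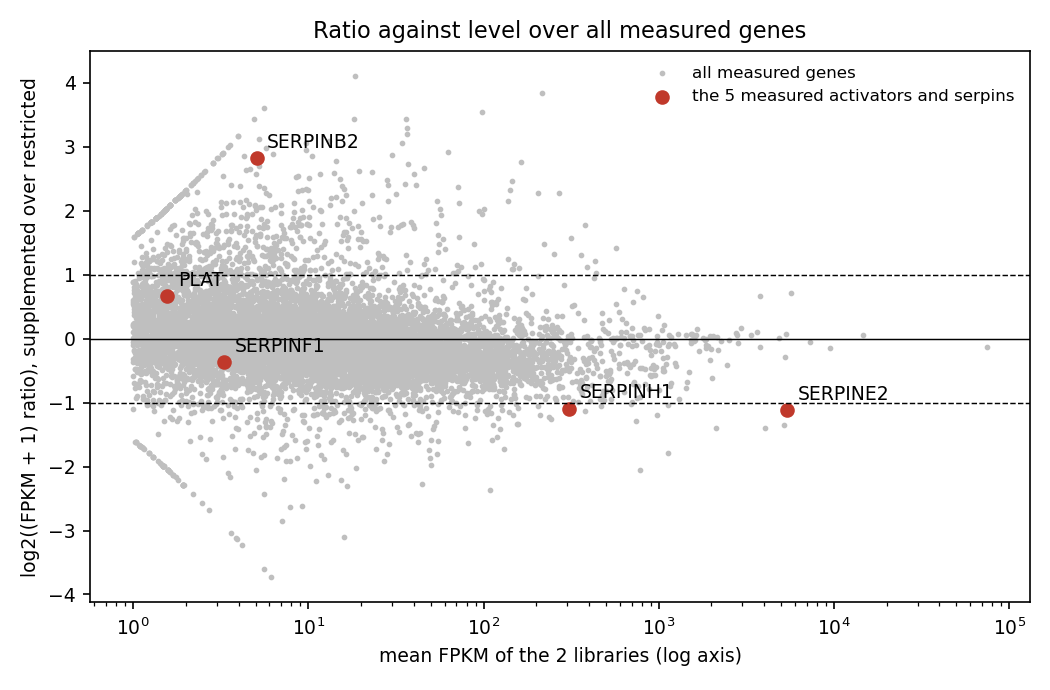
Log2 ratio of FPKM + 1, supplemented over restricted, against the mean FPKM (log axis) for the 11927 measured genes (grey) and the 5 measured activators and serpins (red), 1 library per diet, with dashed lines at the size threshold of 1 and -1. SERPINB2 (2.82) lies above the upper line, SERPINE2 (-1.12) and SERPINH1 (-1.09) lie just below the lower line, and PLAT (0.67) and SERPINF1 (-0.37) lie between.

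Other genes of the plasminogen system were mixed in direction. Of 12 measured partners, 1 was higher and 1 was lower by size, where 5.87% and 2.85% of all measured genes were. The other 10 were neither, and the median log2 ratio was 0.03. By the counting interval 5 were above 1 and 4 below, where 20.4% and 35.7% of all measured genes were. With so few genes these counts describe the list and no more. SERPINF2, the plasmin inhibitor antiplasmin, stood at 14.6 against 32.1 FPKM, 2.19-fold lower (2.04 to 2.36). PLG, the gene for plasminogen itself, which is made mainly in liver, had 5 reads against 2, or 0.0845 against 0.0327 FPKM, under the filter.

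Among the cell surface proteins that bind plasminogen, S100A10, the light chain of the annexin A2 complex, stood at 198 against 92.4 FPKM. It was 2.14-fold higher (1.87 to 2.46), with 633 against 306 reads. ANXA2, its partner, stood at 196 against 184 FPKM (1.06-fold, 1.02 to 1.11), and ENO1, a glycolytic enzyme that also binds plasminogen, at 407 against 647 FPKM. The pair of the annexin A2 complex was therefore not shifted alike.

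Among the serpins outside the named set, 26 genes were examined and 6 were measured, with a median log2 ratio of 0.60. By size 1 of the 6 was higher and 1 was lower, where 5.87% and 2.85% of all measured genes were. The lower one was SERPINF2, which is also counted among the partners. SERPINB1, an inhibitor of neutrophil proteases found in leukocytes, had 1632 reads in the supplemented against 423 in the restricted library. It stood at 40.5 against 10.1 FPKM, 3.99-fold higher (3.59 to 4.46), and the authors' deposited table calls it up (q = 0.00547). Leukocyte markers summed higher there too (605 against 113 FPKM in sum), and their part in this was not tested. SERPINB6, SERPINB8 and SERPINB9 were also higher, at 7.96 against 5.36, 11.6 against 6.81 and 2.61 against 1.11 FPKM. Their ratios of scaled reads were 1.49, 1.71 and 2.34. Their log2 ratios of FPKM + 1, at 0.50, 0.70 and 0.77, did not reach the size threshold.

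Clotting genes were few among the measured. Of 9 genes, 0 were higher and 2 lower by size, where 5.87% and 2.85% of all measured genes were. Their median log2 ratio was -0.22. F3, tissue factor, which starts clotting, had 74 reads in the supplemented against 325 in the restricted library, or 4.67 against 19.8 FPKM. It was 4.24-fold lower (3.29 to 5.54). F10, a clotting factor activated through tissue factor, was the other. By the counting interval 4 of the 9 were above 1 and 4 below, where 20.4% and 35.7% of all measured genes were. Above 1 were F13A1, a chain of the factor that crosslinks fibrin, at 2.22-fold (1.83 to 2.70), the fibrinogen chain FGB at 1.92-fold (1.33 to 2.79), the thrombin-binding receptor THBD at 1.94-fold (1.23 to 3.1) and the cofactor F5 at 1.19-fold (1.09 to 1.29). TFPI2, an inhibitor of plasmin and other proteases, stood at 19.95 against 32.3 FPKM, and F2R, a thrombin receptor, at 17.5 against 20.6 FPKM.

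**Figure D3:**
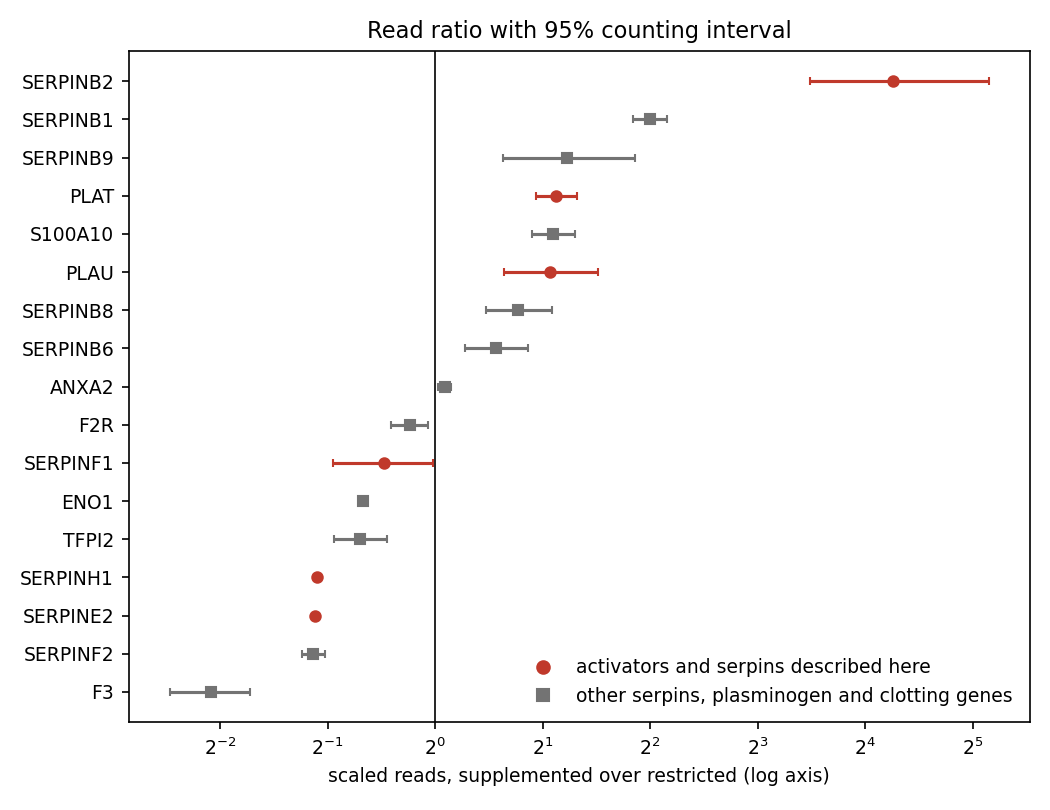
Ratio of scaled reads, supplemented over restricted (log axis), with exact 95% counting intervals, for the 6 activators and serpins (red circles) and 11 other serpins, plasminogen and clotting genes (grey squares), 1 library per diet. F3, SERPINF2, SERPINE2 and SERPINH1 lie at the low end, both activators lie near 2 and SERPINB2, at 19.2, lies farthest to the right.

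Markers of further cells were set beside these values. Endothelial cells also make tissue-type activator, and their markers had 3 measured members of 8 with a row, 2 of them higher by size and 0 lower, and a summed level of 19.7 FPKM in the supplemented against 6.45 FPKM in the restricted library. PECAM1 stood at 10.4 against 1.79 FPKM and none of the 8 was at 0, but leukocytes also carry PECAM1. TIE1, a receptor of endothelial cells, stood at 2.73 against 1.34 FPKM (2.04-fold, 1.53 to 2.75). Beside PECAM1, EMCN was the gene higher by size, with 21 against 4 reads (ratio 5.44, 1.83 to 21.8). The other genes were under the filter. Intervals lay above 1 for KDR (ratio 4.21, 2.77 to 6.62) and VWF (1.35, 1.003 to 1.82). Intervals included 1 for CDH5 (ratio 1.36, 0.676 to 2.79), TEK (1.24, 0.856 to 1.79) and FLT1 (0.859, 0.634 to 1.16). Of the theca markers, INSL3 stood at 200.5 against 93.7 FPKM (2.14-fold, 1.90 to 2.41) and CYP17A1 at 8.57 against 7.10 FPKM (1.21-fold, 1.003 to 1.46). Oocyte markers summed to 19.1 against 29.0 FPKM, with 0 of 6 measured higher and 1 lower by size. The egg coat genes ZP3 and ZP4 stood at 6.72 against 8.76 FPKM and at 2.83 against 4.29 FPKM. The part of these cells in the activator levels was not tested.

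**Figure D4:**
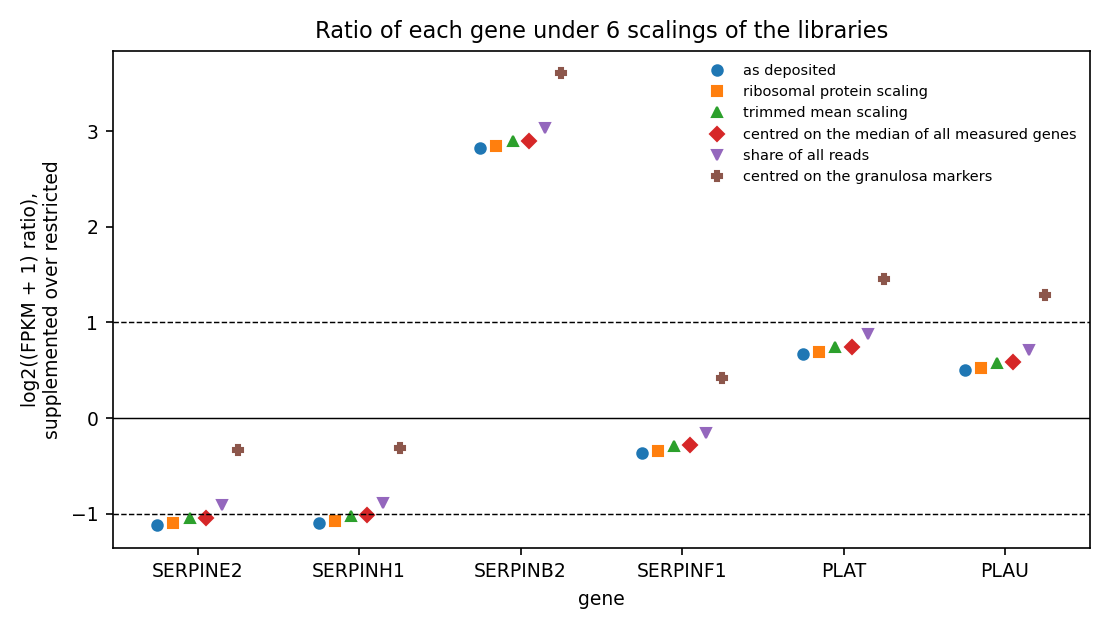
Log2 ratio of FPKM + 1, supplemented over restricted, of the 6 genes under 6 scalings of the libraries (symbols), 1 library per diet, with dashed lines at 1 and -1. SERPINB2, PLAT and PLAU stay above 0 and SERPINE2 and SERPINH1 below 0 under each of them, SERPINE2 and SERPINH1 fall inside the dashed lines when scaled to all reads (-0.91 and -0.88) and when centred on the granulosa markers (-0.34 and -0.31), and SERPINF1 changes sign when so centred.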

How the data were processed

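Granulosa cell RNA of each diet group was made into a library with 15 PCR cycles from 5 µg of RNA, per the labels' protocols. The tools TopHat and Cuffdiff and the build Oar_v3.1 come from the list per the submitters' processing notes. The annotation was not stated there. In the deposited signal columns each read counts as 1.02 (supplemented library) or 0.983 (restricted library), a size factor set by the authors. After division by it, 98.5% of 17628 nonzero entries (supplemented) and 98.3% of 17364 (restricted) were whole to within 0.02, and the remainder were rounded. No count model was run on these reads, because with 1 library per group it has no residual spread. FPKM is the authors' unit, per the file headers. The authors' log2 fold change has the supplemented library on top, which FPKM bears out. The authors' p-values and q-values were copied from the deposited table.

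Values were summed per gene name, and 4419 unnamed entries were kept apart. Positions are those of the deposited table, with 1 added to each start. Read ratios have exact Clopper-Pearson 95% intervals. Ratios of 2 ratios have exact conditional intervals, or large-sample intervals where every count was above 500. Python 3.11.15, numpy 2.4.6, pandas 2.3.3 and scipy 1.17.1 were used. The rule was also run on simulated reads, whose outcome is not given here and lends no support to the values above. The genes, lists, markers and alternatives were chosen with earlier results of these data known. Named genes are the 6 genes, up to 5 list genes past the size threshold with FPKM averaging 5 or more, the 2 most abundant of each list or marker list, list genes that the authors call, and the 3 nearest in level to SERPINE2 and SERPINB2. PLG, SERPINB6, SERPINB8, SERPINB9, SERPINB10, F10, F13A1, FGB, THBD, F5, COL4A2, COL18A1, CDH5, TEK and FLT1 do not follow from it. Nor do S100A9, S100A12, LUM, PDGFRA, PDGFRB, MYH11, ADAMTS2, CD79B, CYP19A1, FSHR, ESR2 and AMHR2. Neither do ITGAM, CD3E, CD3G, CD79A, DCN, EMCN, KDR and VWF, and all these genes were picked with their values in view. An item of these lists is not reported here.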

Additional observations from a re-analysis of the deposited data

How the results depend on the processing

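The number of the 5 measured genes higher by size, 1 as reported, was 2 with a pseudocount of 0.1, 2 when centred on the granulosa markers, 2 by a counting interval wholly beyond 1 and 2 by the ratio of scaled reads with no pseudocount (chosen after seeing the data), PLAT being the added gene each time. PLAU, outside the filter, also passed when centred on the granulosa markers (1.29), without pseudocount (1.07) and by interval. The number lower by size, 2 as reported, was 0 by share of all reads. It was also 0 with centring on the granulosa markers. The other 18 values of these 2 counts stayed within 1.5 times. Every log2 ratio shifts by 0.21 by share of all reads, by 0.78 if centred on the granulosa markers, 0.08 when centred on all measured genes, 0.07 by trimmed mean scaling and 0.02 on ribosomal proteins. Over 12 settings the log2 ratio ran from -1.12 to -0.34 for SERPINE2, -1.10 to -0.31 for SERPINH1, 1.41 to 4.26 for SERPINB2, 0.26 to 1.45 for PLAT and 0.16 to 1.29 for PLAU. SERPINF1 ran from -0.48 to 0.42, above 0 in 1 setting.

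Over all 11927 measured genes, 700 higher and 340 lower became 960 and 204 by share of all reads. They became 2914 and 86 if centred on the granulosa markers, and 2433 and 4259 by a counting interval wholly beyond 1. With a pseudocount of 0.1 they were 981 and 462, without a pseudocount 911 and 416, and with a pseudocount of 5 228 and 132. Over genes averaging 5 FPKM or more they were 302 and 219. The changed counts of the 5 genes are to be read beside these. No paired analysis was possible because each diet has 1 library, and no library could be left out. Depth limits SERPINB2 (14 reads) and PLAU (68 reads) in the restricted library most.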

Other observations

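SERPINC1, antithrombin, had 18 reads in the supplemented against 17 in the restricted library (ratio 1.10, 0.533 to 2.26), SERPINA5, an inhibitor of activated protein C and urokinase, had 6 against 6 reads, and SERPIND1, heparin cofactor, had 4 reads against 0. No difference was detectable at this depth. SERPINA6, the corticosteroid-binding globulin, had 133 against 113 reads (ratio 1.22, 0.941 to 1.58). SERPINI1, neuroserpin, an inhibitor of tissue-type activator known from neurons, had 27 against 40 reads (ratio 0.699, 0.412 to 1.17). These genes were chosen after their values were seen.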
